A study of Mus musculus with 12 samples.

Results

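Genes of the lysosome were followed in L929, an established mouse fibroblast line, across 4 groups of 3 RNA-seq libraries. The genes were the entries that the deposited count table assigns to the KEGG pathway named Lysosome and whose mean over the 12 libraries was at least 1 CPM, a count scaled to the size of its library, here by library size alone. Levels in the rest of the text are CPM after TMM (trimmed mean of M values) scaling. Of 131 such entries among 56287 in the table, 108 met this level and 23 did not. Ctso, at a mean of 1.14 CPM, lay just inside the level, and Ctsk at 0.726 CPM and Ctsj at 0.674 CPM lay just outside it. All 108 passed the filter on low counts and were tested among 14694 genes. By role they were 45 hydrolases, 3 hydrolase activators, 2 other soluble proteins, 30 membrane proteins with Cd68 among them, 5 proteins of the mannose 6-phosphate route, 6 clathrin and Gga coat proteins, and 17 adaptor subunits of the Ap1, Ap3 and Ap4 complexes.

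All cells were wild type. The HT-DNA+AOA+Asp group received transfected HT-DNA for 6 h together with 0.5 mM AOA, which was added 1 h earlier, and 20 mM Asp. The HT-DNA+AOA group received the DNA and AOA, the HT-DNA group the DNA alone, and the mock group neither DNA nor compound. AOA and Asp are the usual short forms of aminooxyacetate, which inhibits aminotransferases, and of aspartate, and HT-DNA that of herring testis DNA, but the labels spell none of them out. No group with AOA or Asp and no DNA was analysed here, and whether the mock cells were given the transfection reagent Lipofectamine is not stated. The libraries held 19944571 to 27309291 estimated counts. The sources do not state whether replicates came from separate cultures; the p-values therefore reflect variation among these libraries, which may be technical.

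The lysosome is the acidic compartment in which cells break down proteins, glycans, lipids and nucleic acids that arrive by endocytosis or autophagy. Most of its hydrolases are made in the endoplasmic reticulum, tagged with mannose 6-phosphate in the Golgi, bound by the receptors M6pr and Igf2r, and carried in clathrin-coated vesicles loaded by adaptor complexes. A proton pump acidifies the lumen, heavily glycosylated membrane proteins line it, and transporters export the breakdown products. Many of these genes carry a promoter element called CLEAR, through which the transcription factors Tfeb, Tfe3 and Mitf are known to act, and mTORC1 at the lysosome surface holds Tfeb and Tfe3 in the cytoplasm when amino acids are plentiful.

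The lysosome genes together held 1.3% to 1.31% of the scaled counts in HT-DNA+AOA+Asp, 1.36% to 1.4% in HT-DNA+AOA, 1.26% to 1.29% in HT-DNA and 1.34% to 1.43% in mock. Their summed level was 13015 ± 86.1 CPM in HT-DNA+AOA+Asp, 13809 ± 229.6 in HT-DNA+AOA, 12737 ± 164 in HT-DNA and 13751 ± 504 in mock (SD, n = 3). The highest mock library, replicate 3, reached 14329 CPM, above 13399 and 13524 CPM in the other mock libraries. Scaled to gene length, the most abundant was Cd63, a tetraspanin of late endosomes, with a mean of 726 CPM per kb over the 12 libraries. Cd68, a sialomucin of the lysosomal membrane, had 282 CPM per kb, Atp6v0c, the proteolipid of the proton pump, 279, and Psap, the precursor of the saposins, 269. Ap1s1, a small chain of the Ap1 adaptor, had 252 CPM per kb. Ctsd and Ctsz, an aspartic and a cysteine protease, had 249 and 239 CPM per kb. The median lysosome gene had 18.1 CPM per kb and the lowest, Ctso, 0.33.

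Cd68 is widely used as a macrophage marker, so markers of macrophages and leukocytes were read beside it. Of 12 such markers 4 passed the filter on low counts. Adgre1 had no count in any of the 12 libraries, and Ptprc did not exceed 0.0468 CPM in any. Cx3cr1, Lyz2 and Cd14 had counts in every library, with highest values of 1.94, 0.768 and 0.577 CPM. The summed level of the 12 markers was 18.7 to 23.3 CPM in HT-DNA+AOA+Asp, 35.9 to 42.3 in HT-DNA+AOA, 15.8 to 22.6 in HT-DNA and 26.0 to 34.0 in mock, and most of it was Cd74, the invariant chain of class II antigen presentation. Without Cd74 the sum was 2.06 to 2.81, 1.84 to 2.57, 1.95 to 3.04 and 2.7 to 3.45 CPM in the same order of groups. Fibroblast markers fitted the label in part: 9 of 12 passed the filter, with Vim, Sparc and Col5a1 high, while Thy1, Dcn and Lum stayed near 0. The summed level of the 12 fibroblast markers was 4381 ± 66.3 CPM in HT-DNA+AOA+Asp, 4024 ± 56.5 in HT-DNA+AOA, 4727 ± 183 in HT-DNA and 4081 ± 6.91 in mock, and most of it was Vim, an intermediate filament protein. Without Vim the sum was 1205 to 1254 CPM in HT-DNA+AOA+Asp, 962 to 999 in HT-DNA+AOA, 1098 to 1109.5 in HT-DNA and 1232 to 1247 in mock. In HT-DNA against mock 2 of the 9 tested fibroblast markers were called higher and 4 lower (22.2% and 44.4%, against 21.2% and 19.8% of all genes). In HT-DNA+AOA against HT-DNA 2 were higher and 7 lower (22.2% and 77.8%, against 25.5% and 26.5%). In HT-DNA+AOA+Asp against HT-DNA+AOA 6 were higher and 2 lower (66.7% and 22.2%, against 28.3% and 26.4%). Their log2 fold changes ran from -1.16 to 0.85 and from -0.81 to 1.21 in the last 2 comparisons. The part of either list in the lysosome results was not tested.

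**Figure D1:**
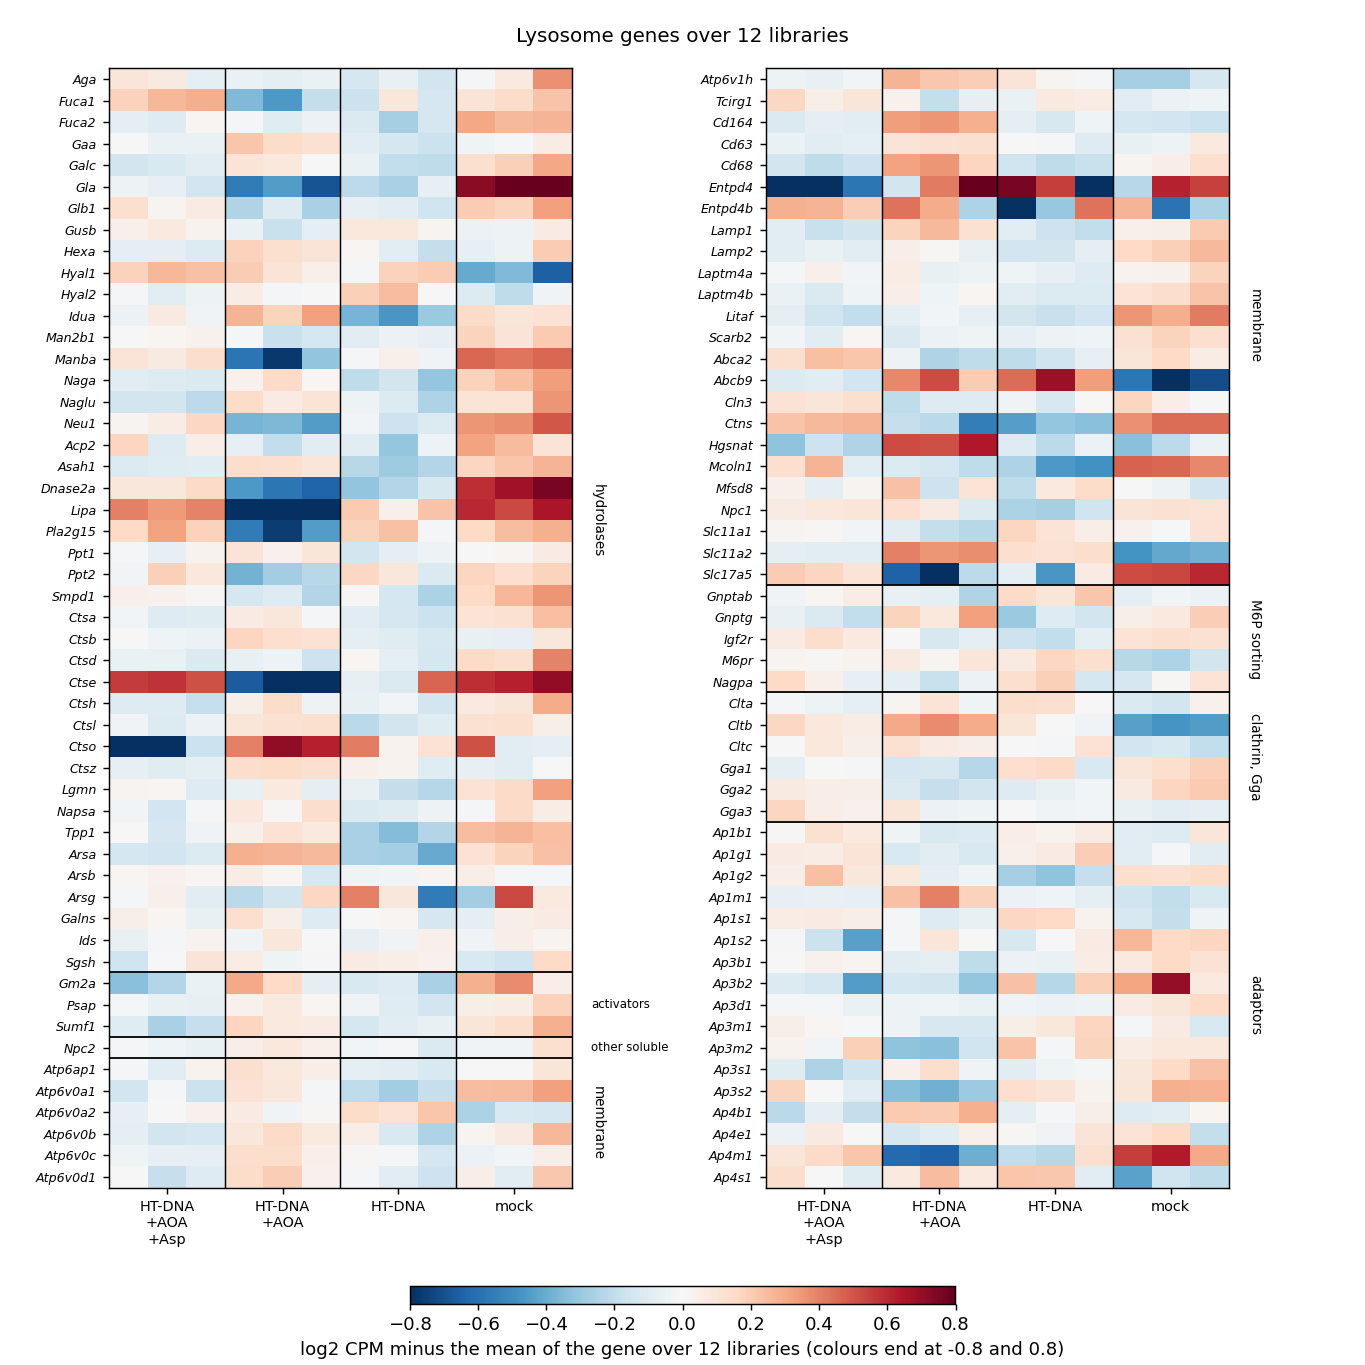
Each row is one of the lysosome genes shown and each column a library, in the order HT-DNA+AOA+Asp, HT-DNA+AOA, HT-DNA and mock with replicates 1 to 3 from left to right, and the colour is log2 CPM minus the gene's mean over the 12 libraries. Rows are ordered by role; many hydrolases, such as Gla and Dnase2a, are red (higher) in the 3 mock libraries, while Lipa and Ctse are blue (lower) in the 3 HT-DNA+AOA libraries.

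HT-DNA was set against mock to ask what transfected DNA did to these genes. More lysosome genes were lower than higher. Of 108, 55 were called lower, 14 higher and 39 did not pass (69 called, against 41% of all genes tested), where a call is an adjusted p under 0.05 in edgeR's quasi-likelihood test over all 14694 genes. The share called lower was 50.9%, against 19.8% of all genes tested, and the share called higher was 13%, against 21.2% of all genes. The median log2 fold change was -0.15, against -0.01 over all genes. Log2 fold changes are written ± their standard error, levels as mean ± SD of 3 libraries, and adjusted p-values are those of the edgeR test over all genes. Below, AOA against HT-DNA and Asp against HT-DNA+AOA stand for the comparisons of HT-DNA+AOA with HT-DNA and of HT-DNA+AOA+Asp with HT-DNA+AOA. Most of the differences were small: 6 lysosome genes were called lower by 1.5-fold or more and 2 higher, against 5.09% and 3.3% of all genes. Scaling by library size alone moved the median of all genes by -0.06 and the share of all calls that were higher to 39.3%, against 51.7% with TMM factors. In bulk RNA, fewer cells of a kind and less RNA per cell cannot be told apart.

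The classes differed in these counts in HT-DNA against mock. Of all genes tested 19.8% were called lower and 21.2% higher. Of the 45 hydrolases, 29 were called lower and 2 higher (64.4% and 4.44%), with a median log2 fold change of -0.27. Of the 30 membrane proteins, 15 were called lower and 4 higher (50% and 13.3%, median -0.14). Of the 17 adaptor subunits, 5 were called lower and 3 higher (29.4% and 17.6%, median -0.01), nearer the shares of all genes. All 3 hydrolase activators were called lower by edgeR. The call of Gm2a, an activator that presents gangliosides to their hydrolase, at 3.11 ± 0.181 CPM in HT-DNA and 4.11 ± 0.468 CPM in mock, was lost under 11 alternatives, among them leaving out mock replicate 1 or 2, any HT-DNA replicate, HT-DNA+AOA replicate 2 or HT-DNA+AOA+Asp replicate 2 (adjusted p = 0.0522 to 0.17). Of the 6 coat proteins 3 were called higher and 1 lower, among the higher ones Cltb and Cltc, a light chain and the heavy chain of clathrin. No test of the difference between classes was made.

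**Figure D2:**
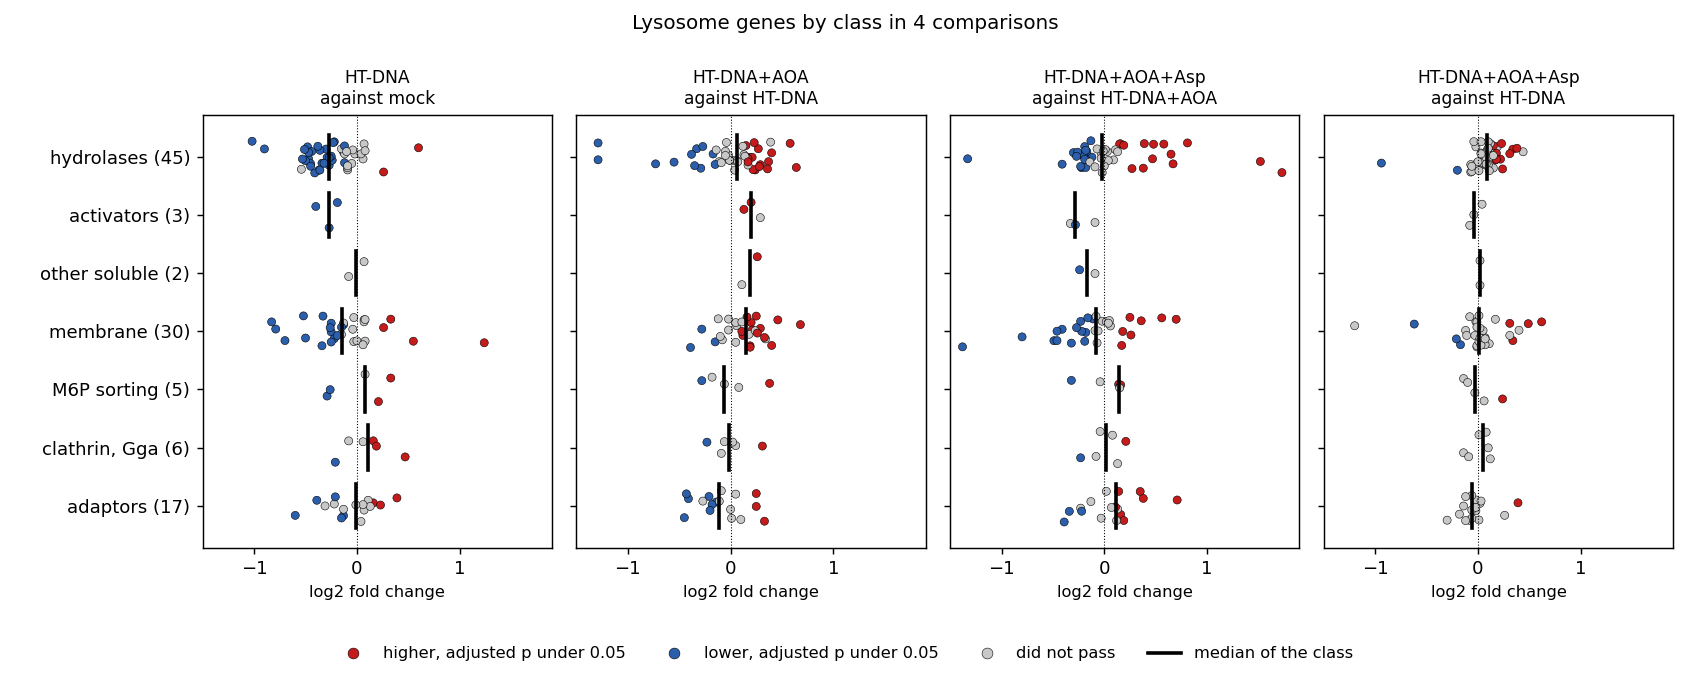
Every point is a lysosome gene, placed by its log2 fold change (x axis) in its class (y axis, number of genes in brackets), in the 4 comparisons from left to right; red and blue mark genes called higher and lower, grey those that did not pass, and black bars the class medians. In HT-DNA against mock the median of the hydrolases is -0.27, and in HT-DNA+AOA against HT-DNA that of the membrane proteins is 0.15.

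HT-DNA+AOA was set against HT-DNA to ask what AOA added. Here the calls were split: 39 lysosome genes were called higher (36.1%, against 25.5% of all genes tested), 23 lower (21.3%, against 26.5%) and 46 did not pass (62 called, against 52% of all genes), with a median log2 fold change of 0.06 against 0 over all genes. Of the membrane proteins 15 were called higher and 3 lower (median 0.15). Scaling by library size alone left 10 higher and 4 lower (median 0.10), and leaving out HT-DNA replicate 3 or HT-DNA+AOA replicate 2 left 1 lower. Of the hydrolases 16 were called higher and 11 lower (median 0.06), and of the adaptor subunits 3 higher and 7 lower (median -0.11). By 1.5-fold or more, 2 lysosome genes were higher and 3 lower, against 9.43% and 8.43% of all genes.

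HT-DNA+AOA+Asp was set against HT-DNA+AOA to ask what Asp added, and against HT-DNA to ask what AOA and Asp did together. These comparisons share libraries with each other and with the one before, so their errors are not independent and their calls are given side by side without an overlap. HT-DNA against mock and HT-DNA+AOA against HT-DNA likewise share the HT-DNA libraries, on opposite sides. An error in those libraries moves the log2 fold changes of the 2 comparisons in opposite directions. Against HT-DNA+AOA, 30 lysosome genes were called higher (27.8%, against 28.3% of all genes tested), 38 lower (35.2%, against 26.4%) and 40 did not pass (68 called, against 54.7% of all genes). By 1.5-fold or more, 7 were higher and 3 lower, against 9.79% and 9.66% of all genes. The hydrolases split into 13 higher and 17 lower, the membrane proteins into 7 higher and 14 lower, and the adaptor subunits into 7 higher and 3 lower. Scaling by library size alone gave 11 hydrolases lower and 15 higher, and turned the hydrolase median to 0.04, against -0.02 with TMM factors. Leaving out HT-DNA+AOA replicate 3 or HT-DNA+AOA+Asp replicate 2 left 4 adaptor subunits higher.

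Against HT-DNA, far fewer genes differed in HT-DNA+AOA+Asp: 16 lysosome genes were called higher (14.8%, against 10.4% of all genes tested), 5 lower (4.63%, against 8.15%) and 87 did not pass (21 called, against 18.5% of all genes). By 1.5-fold or more, 1 was higher and 2 lower, against 1.24% and 0.762% of all genes. Among them 10 hydrolases were higher and 2 lower, 4 membrane proteins higher and 3 lower, and 1 adaptor subunit higher. The 2 hydrolases called lower both missed the threshold without HT-DNA replicate 1 or 2 or HT-DNA+AOA+Asp replicate 1 or 2, or with a replicate block. Only 1 hydrolase was called lower without HT-DNA replicate 3, HT-DNA+AOA replicate 2 or 3, HT-DNA+AOA+Asp replicate 3 or mock replicate 2, with no filter on low counts, with only the 2 groups compared or with the DESeq2 Wald test. The hydrolases called higher numbered 6 without HT-DNA replicate 2 and 5 without HT-DNA+AOA+Asp replicate 3. The 5 lower calls numbered 3 without HT-DNA replicate 1 and 2 without HT-DNA replicate 2 or without HT-DNA+AOA+Asp replicate 1 or 2. A gene that did not pass is not shown to be equal in the groups.

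**Figure D3:**
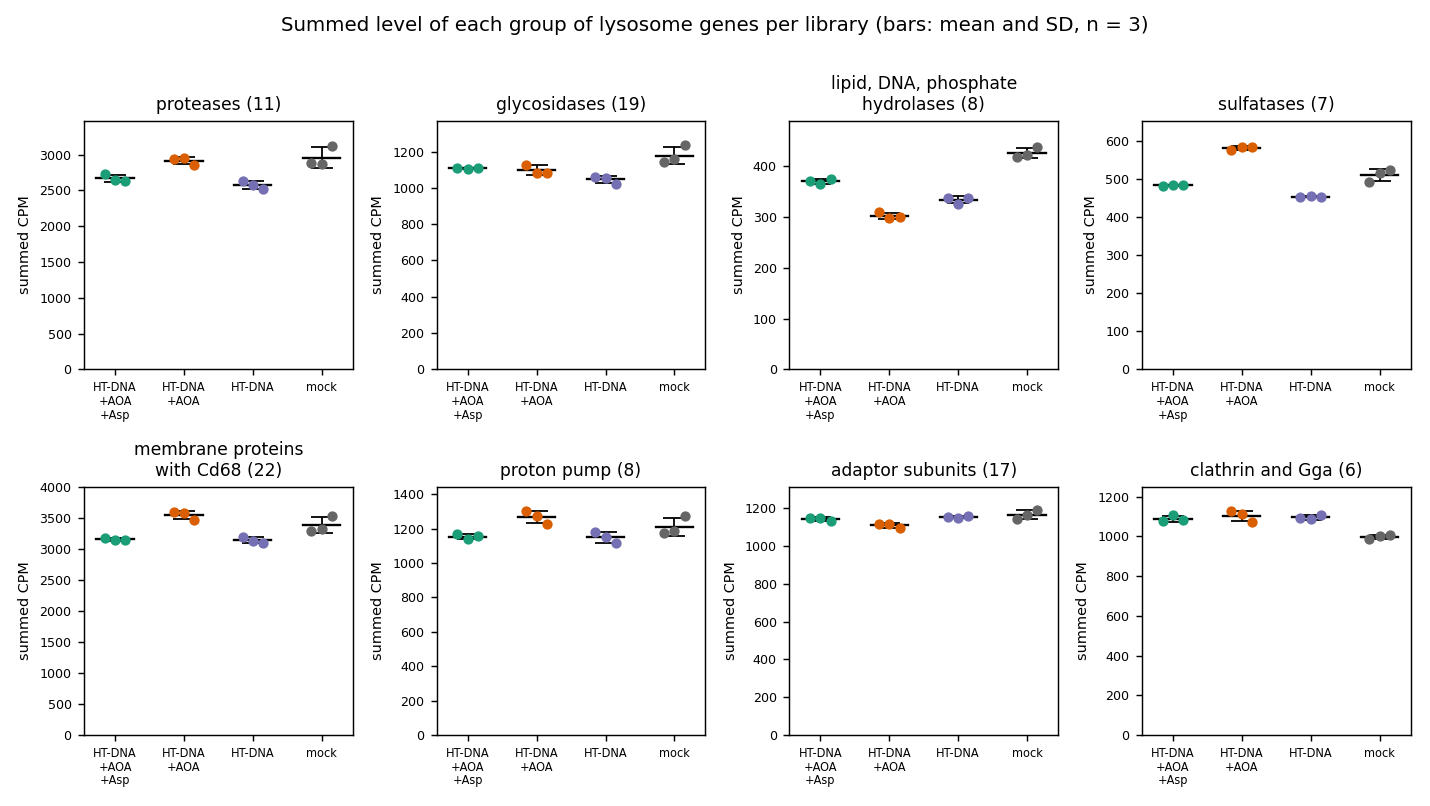
Summed CPM (y axis, from 0) of 8 groups of lysosome genes in each library, with the group mean and SD (n = 3) as bars and the number of genes in brackets; x axis, the 4 groups. The lipid, DNA and phosphate hydrolases sum lowest in the HT-DNA+AOA libraries, at 297.6 to 309.5 CPM. From HT-DNA to HT-DNA+AOA the mean of Lipa alone fell by more CPM than the mean of this sum. The sulfatases and the membrane proteins without the proton pump have their highest mean sums in HT-DNA+AOA, at 581 ± 5.21 and 3551 ± 66.2 CPM.

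Glycosidases, which trim sugars from glycoproteins and glycolipids, gave the largest group of lower calls in HT-DNA against mock, with 15 of 19 lower, 2 higher and a median log2 fold change of -0.32. Gla, the alpha-galactosidase whose loss causes Fabry disease in people, stood at 19.8, 19.4 and 18.3 CPM in HT-DNA+AOA+Asp, 13.8, 14.9 and 12.6 CPM in HT-DNA+AOA, 17.6, 17 and 19.4 CPM in HT-DNA and 33.6, 36.2 and 39.1 CPM in mock. All mock libraries lay above all others, and the HT-DNA+AOA libraries lay below all others. The log2 fold change of Gla was -1.02 ± 0.077 (adjusted p = 1.12e-09) in HT-DNA against mock and -0.38 ± 0.084 (adjusted p = 0.0006) in HT-DNA+AOA against HT-DNA. With Asp it was 0.48 ± 0.084 (adjusted p = 5.29e-05) against HT-DNA+AOA, and 0.10 ± 0.081 (adjusted p = 0.45) against HT-DNA.

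Neu1, a sialidase, had 45.7 ± 2.39 CPM in HT-DNA+AOA+Asp, 32.9 ± 1.10 in HT-DNA+AOA, 40.3 ± 2.01 in HT-DNA and 57.3 ± 3.08 in mock (SD, n = 3), with log2 fold changes of -0.51 ± 0.058 (adjusted p = 3.72e-07) for HT-DNA against mock, -0.29 ± 0.061 (adjusted p = 0.000336) for HT-DNA+AOA against HT-DNA and 0.47 ± 0.061 (adjusted p = 8.49e-07) for HT-DNA+AOA+Asp against HT-DNA+AOA. Manba, a beta-mannosidase, stood at 25.9, 25.3 and 26.6 CPM in HT-DNA+AOA+Asp, 16.1, 14.1 and 19.4 CPM in HT-DNA+AOA, 24, 24.8 and 23.7 CPM in HT-DNA and 33.2, 32.5 and 33.1 CPM in mock. No 2 of its groups overlapped, and HT-DNA+AOA was the lowest. Its log2 fold change was -0.45 ± 0.079 (adjusted p = 9.17e-05) in HT-DNA against mock, -0.55 ± 0.084 (adjusted p = 1.03e-05) in HT-DNA+AOA against HT-DNA and 0.65 ± 0.085 (adjusted p = 1.03e-06) in HT-DNA+AOA+Asp against HT-DNA+AOA. Fuca1, an alpha-fucosidase, was also called lower in the first 2 comparisons, at -0.22 ± 0.075 (adjusted p = 0.0203) and -0.27 ± 0.077 (adjusted p = 0.00563), and higher with Asp, at 0.58 ± 0.076 (adjusted p = 1.27e-06). In HT-DNA+AOA+Asp against HT-DNA it was called higher, at 0.31 ± 0.075 (adjusted p = 0.00576). The lower call against mock missed the threshold on omitting mock replicate 3 (adjusted p = 0.0764), HT-DNA replicate 1 (0.114) or HT-DNA replicate 3 (0.0714), and the one with AOA on omitting HT-DNA replicate 2 (0.0692).

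Other glycosidases went up with AOA. Idua, which cleaves iduronic acid from heparan and dermatan sulfate, stood at 14.3, 15.5 and 14.5 CPM in HT-DNA+AOA+Asp, 17.8, 16.7 and 18.5 CPM in HT-DNA+AOA, 11.4, 10.7 and 12 CPM in HT-DNA and 16.4, 15.8 and 16 CPM in mock. The HT-DNA libraries were the lowest and did not overlap any other group. Idua was called lower in HT-DNA against mock, at -0.50 ± 0.079 (adjusted p = 2.33e-05), higher with AOA, at 0.64 ± 0.079 (adjusted p = 6.3e-07), lower with Asp, at -0.26 ± 0.077 (adjusted p = 0.00734), and higher in HT-DNA+AOA+Asp against HT-DNA, at 0.38 ± 0.08 (adjusted p = 0.00241). Hexa, a hexosaminidase subunit, averaged 143 ± 4.03 CPM in HT-DNA+AOA, against 122 ± 8.86 CPM in HT-DNA, with a log2 fold change of 0.22 ± 0.062 (adjusted p = 0.00546). HT-DNA against mock gave -0.12 ± 0.062 (adjusted p = 0.128) for Hexa, and Asp gave -0.23 ± 0.063 (adjusted p = 0.00477). With AOA the 19 glycosidases as a group split into 7 higher and 6 lower (36.8% and 31.6%, against 25.5% and 26.5% of all genes).

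Hyal1 and Hyal2, which cut hyaluronan, were the 2 glycosidases called higher in HT-DNA against mock. Hyal1 stood at 113, 120.0 and 117 CPM in HT-DNA+AOA+Asp, 115, 107 and 103 CPM in HT-DNA+AOA, 99.2, 113 and 115 CPM in HT-DNA and 75.3, 78 and 63.3 CPM in mock. Every library with DNA lay above every mock library, and the 3 groups with DNA overlapped. Its log2 fold change was 0.60 ± 0.072 (adjusted p = 4.44e-06) for HT-DNA against mock, and it did not pass in the other 3 comparisons. Hyal2 had 37.7 ± 3.27 CPM in HT-DNA and 31.5 ± 1.92 in mock, with 0.26 ± 0.066 (adjusted p = 0.00252). In HT-DNA+AOA+Asp against HT-DNA it was called lower, at -0.20 ± 0.066 (adjusted p = 0.0373), a call that missed the threshold on omitting HT-DNA replicate 1, HT-DNA replicate 2, HT-DNA+AOA+Asp replicate 1, HT-DNA+AOA+Asp replicate 2 or HT-DNA+AOA+Asp replicate 3 (adjusted p = 0.0636 to 0.192).

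Of the 8 hydrolases of lipids, nucleic acids and phosphate esters, 6 were called lower in HT-DNA against mock (median -0.38). This is 75%, against 19.8% of all genes tested. Dnase2a encodes the acid DNase that degrades DNA inside lysosomes. It stood at 31.3, 31.3 and 32.7 CPM in HT-DNA+AOA+Asp, 21.4, 19.7 and 18.9 CPM in HT-DNA+AOA, 23.6, 25 and 26.9 CPM in HT-DNA and 44.3, 46.8 and 49.8 CPM in mock. The 4 groups did not overlap at any point: mock was highest, then HT-DNA+AOA+Asp, then HT-DNA, then HT-DNA+AOA. Dnase2a had a log2 fold change of -0.90 ± 0.066 (adjusted p = 5.94e-10) in HT-DNA against mock and -0.33 ± 0.07 (adjusted p = 0.000438) in HT-DNA+AOA against HT-DNA. In HT-DNA+AOA+Asp it had 0.67 ± 0.069 (adjusted p = 4.14e-08) against HT-DNA+AOA and 0.34 ± 0.068 (adjusted p = 0.00138) against HT-DNA.

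Lipa, the acid lipase that frees cholesterol and fatty acids from lipoprotein lipids, showed the largest AOA difference of this group. It stood at 79.7, 76.4 and 79.4 CPM in HT-DNA+AOA+Asp, 30.5, 26.9 and 25 CPM in HT-DNA+AOA, 69.6, 62 and 70.5 CPM in HT-DNA and 91.5, 87 and 94.6 CPM in mock. The 3 HT-DNA+AOA libraries were far below all others. Its log2 fold change was -1.29 ± 0.066 (adjusted p = 7.62e-13) for AOA against HT-DNA and 1.52 ± 0.066 (adjusted p = 6.06e-14) for Asp against HT-DNA+AOA. HT-DNA against mock gave -0.44 ± 0.061 (adjusted p = 4.91e-06). HT-DNA+AOA+Asp against HT-DNA gave 0.22 ± 0.061 (adjusted p = 0.0141), which missed the threshold on omitting HT-DNA replicate 2 (adjusted p = 0.117), HT-DNA+AOA+Asp replicate 1 (0.0536) or replicate 3 (0.0564).

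Pla2g15, a lysosomal phospholipase, stood at 16.1, 18 and 16.4 CPM in HT-DNA+AOA+Asp, 9.77, 8.53 and 10.6 CPM in HT-DNA+AOA, 16.4, 17 and 14.3 CPM in HT-DNA and 16.1, 17.1 and 17.6 CPM in mock. Again HT-DNA+AOA libraries lay below all others, and the remaining 3 groups overlapped. Its log2 fold changes were -0.73 ± 0.094 (adjusted p = 1.08e-06) with AOA and 0.81 ± 0.095 (adjusted p = 2.46e-07) with Asp, against -0.09 ± 0.088 (adjusted p = 0.475) for HT-DNA against mock. Ppt2, a thioesterase, had -0.35 ± 0.074 (adjusted p = 0.000472) with AOA and 0.38 ± 0.075 (adjusted p = 0.000197) with Asp. Asah1, the acid ceramidase, went the other way: it averaged 59.5 ± 0.527 CPM in HT-DNA+AOA+Asp, 69.3 ± 1.11 in HT-DNA+AOA, 53.7 ± 1.17 in HT-DNA and 74.2 ± 2.49 in mock. AOA gave 0.37 ± 0.046 (adjusted p = 7.38e-07) and Asp -0.22 ± 0.046 (adjusted p = 0.000356), while HT-DNA against mock gave -0.47 ± 0.046 (adjusted p = 4.45e-08). With AOA, 2 of the 8 genes were called higher and 4 lower (25% and 50%, against 25.5% and 26.5% of all genes).

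Proteases were lower in HT-DNA against mock in 6 of 11 cases (54.5%, against 19.8% of all genes), with a median log2 fold change of -0.25. Tpp1, a tripeptidyl peptidase, averaged 137 ± 6.72 CPM in HT-DNA+AOA+Asp, 149.9 ± 3.80 in HT-DNA+AOA, 117 ± 4.60 in HT-DNA and 169 ± 2.15 in mock. HT-DNA against mock gave -0.53 ± 0.045 (adjusted p = 5.02e-09), AOA gave 0.36 ± 0.045 (adjusted p = 7.63e-07), and HT-DNA+AOA+Asp against HT-DNA gave 0.23 ± 0.045 (adjusted p = 0.00127). Among the abundant cathepsins, Ctsl fell in HT-DNA against mock, at -0.25 ± 0.042 (adjusted p = 4.1e-05), as did Ctsd, at -0.30 ± 0.061 (adjusted p = 0.000664), while Ctsb had -0.09 ± 0.044 (adjusted p = 0.096). Ctsd averaged 504 ± 27.3 CPM in HT-DNA and 619.8 ± 65.4 CPM in mock, where replicate 3 reached 695 CPM.

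With AOA, 5 proteases were called higher and 1 lower (45.5% and 9.09%, against 25.5% and 26.5% of all genes). Ctsb averaged 888 ± 13.5 CPM in HT-DNA+AOA+Asp, 999.6 ± 19.7 in HT-DNA+AOA, 844 ± 14.9 in HT-DNA and 901 ± 56 in mock, with 0.24 ± 0.044 (adjusted p = 7.81e-05) for AOA and -0.17 ± 0.044 (adjusted p = 0.0024) for Asp. Ctsl averaged 401 ± 11 CPM in HT-DNA+AOA+Asp, 454 ± 5.85 in HT-DNA+AOA, 377 ± 15.1 in HT-DNA and 449 ± 13.6 in mock, with 0.27 ± 0.042 (adjusted p = 1.32e-05) for AOA and -0.18 ± 0.042 (adjusted p = 0.00113) for Asp. Ctsd did not pass in either, at -0.02 ± 0.061 (adjusted p = 0.805) and 0.01 ± 0.061 (adjusted p = 0.879). With Asp 7 proteases were called lower and 1 higher (63.6% and 9.09%, against 26.4% and 28.3% of all genes). The lower calls numbered 4 without HT-DNA+AOA replicate 2 or without HT-DNA+AOA+Asp replicate 2.

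The exception among the proteases was Ctse, an aspartic protease of endosomes. It stood at 9.07, 9.19 and 8.78 CPM in HT-DNA+AOA+Asp, 3.89, 1.34 and 3.12 CPM in HT-DNA+AOA, 5.90, 5.69 and 8.50 CPM in HT-DNA and 9.28, 9.47 and 10.1 CPM in mock. All 3 HT-DNA+AOA libraries were below the others, with replicate 2 the lowest, and HT-DNA replicate 3 stood apart from the other HT-DNA libraries. Its log2 fold change was -1.29 ± 0.27 (adjusted p = 0.00148) with AOA and 1.73 ± 0.26 (adjusted p = 0.000116) with Asp. HT-DNA against mock gave -0.54 ± 0.23 (adjusted p = 0.08), which did not pass, although the groups did not overlap.

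Sulfatases, which remove sulfate from glycosaminoglycans and sulfolipids, included Arsb, Arsg, Galns, Ids and Sgsh, which passed in no comparison. Arsa, the arylsulfatase lost in metachromatic leukodystrophy, stood at 88.2, 87.4 and 90.0 CPM in HT-DNA+AOA+Asp, 118, 118 and 116 CPM in HT-DNA+AOA, 81.4, 80.6 and 73.7 CPM in HT-DNA and 105, 109.9 and 114 CPM in mock. The HT-DNA+AOA libraries were the highest and the HT-DNA libraries the lowest, with no overlap of groups. Arsa had -0.48 ± 0.047 (adjusted p = 4.16e-08) in HT-DNA against mock, 0.58 ± 0.047 (adjusted p = 1.27e-09) with AOA and -0.41 ± 0.047 (adjusted p = 2.04e-07) with Asp. Sumf1, which activates all sulfatases, had -0.27 ± 0.06 (adjusted p = 0.000806) in HT-DNA against mock, 0.20 ± 0.06 (adjusted p = 0.0076) with AOA and -0.28 ± 0.061 (adjusted p = 0.000471) with Asp. Psap averaged 689.6 ± 13.3 CPM in HT-DNA+AOA+Asp, 733 ± 16.7 in HT-DNA+AOA, 669 ± 29.4 in HT-DNA and 763 ± 41.2 in mock, with -0.19 ± 0.045 (adjusted p = 0.00183) for HT-DNA against mock and 0.13 ± 0.045 (adjusted p = 0.0186) for AOA. The AOA call of Psap missed the threshold on omitting HT-DNA replicate 2 (adjusted p = 0.0517), HT-DNA replicate 3 (0.0818) or HT-DNA+AOA replicate 2 (0.0615), and on scaling by library size alone (0.136).

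**Figure D4:**
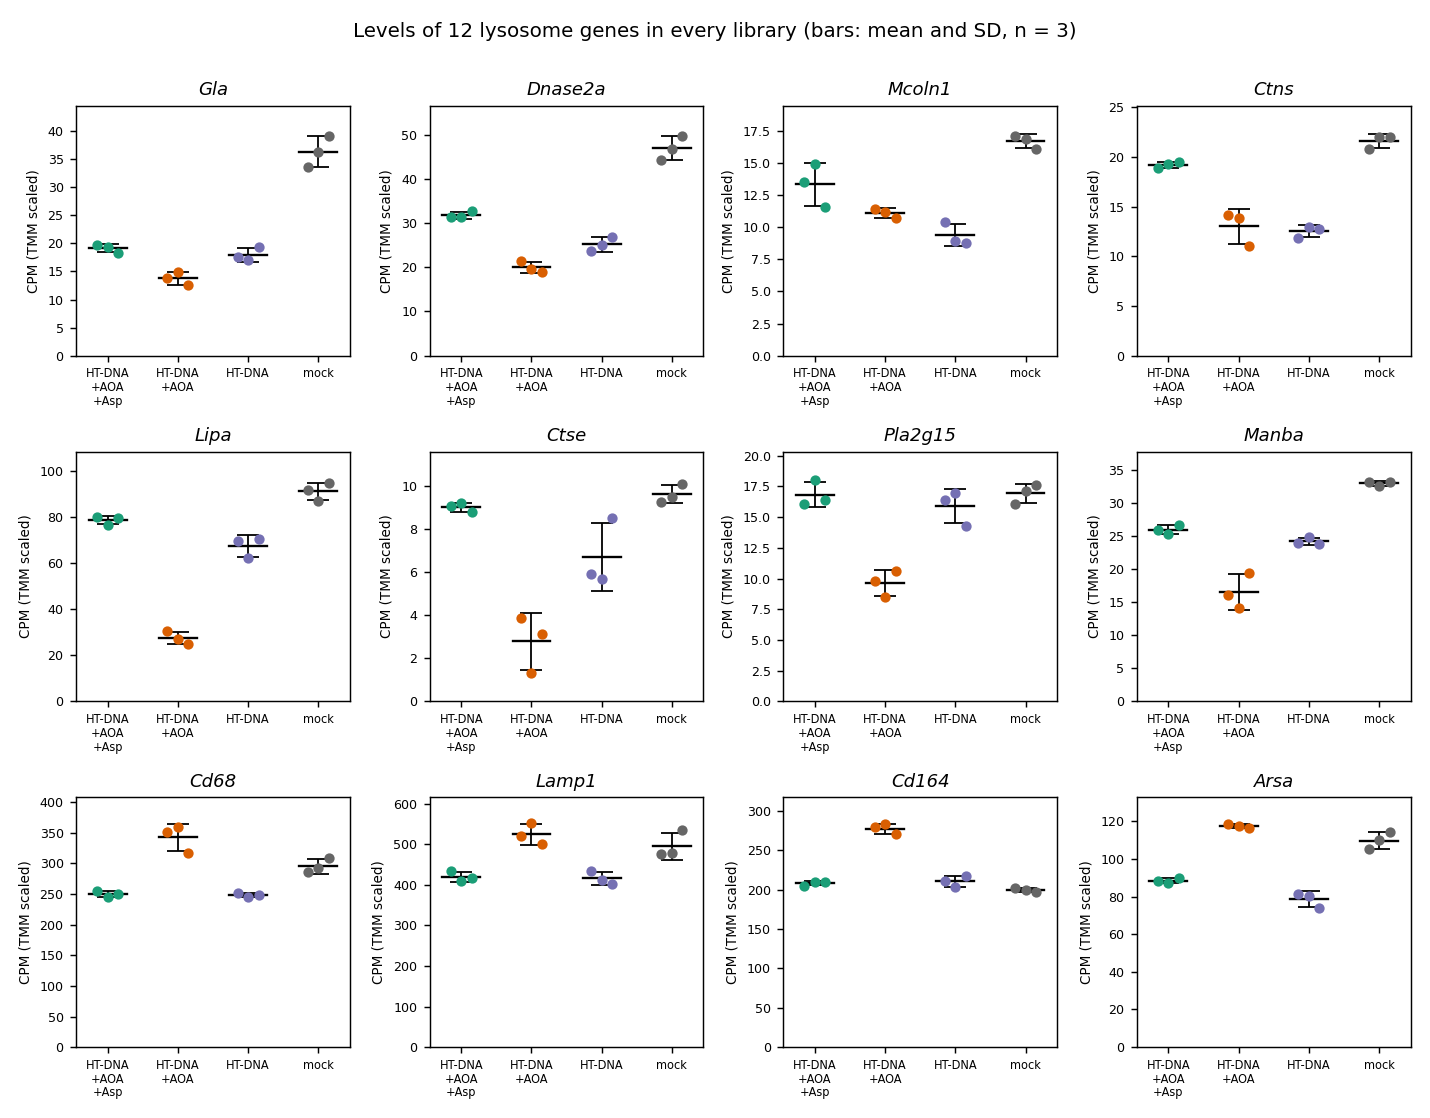
CPM (y axis, from 0, on TMM-scaled library sizes) of 12 lysosome genes in every library, with the mean and SD of each group (n = 3) as bars; x axis, the 4 groups. Lipa, Ctse, Pla2g15 and Manba have their lowest values in the HT-DNA+AOA libraries, while Cd68, Lamp1, Cd164 and Arsa have their highest means there, and Gla, Dnase2a, Mcoln1 and Ctns are highest in mock.

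The 11 structural membrane proteins and tetraspanins, counted here with the enzymes Entpd4 and Entpd4b, were called lower in HT-DNA against mock in 7 cases (median -0.19). This is 63.6%, against 19.8% of all genes. With AOA they were called higher in 6 cases (median 0.15), or 4 with scaling by library size alone. The 6 are 54.5%, against 25.5% of all genes. Cd68 stood at 255, 244 and 250.5 CPM in HT-DNA+AOA+Asp, 351, 359 and 318 CPM in HT-DNA+AOA, 252, 245 and 249 CPM in HT-DNA and 286, 292 and 309 CPM in mock. In HT-DNA+AOA all libraries lay above the others, mock lay next, and the HT-DNA+AOA+Asp and HT-DNA libraries overlapped below them. Its log2 fold change was -0.25 ± 0.047 (adjusted p = 0.00016) in HT-DNA against mock, 0.46 ± 0.047 (adjusted p = 2.94e-08) with AOA, -0.46 ± 0.047 (adjusted p = 3.36e-08) with Asp and 0.01 ± 0.047 (adjusted p = 0.934) in HT-DNA+AOA+Asp against HT-DNA. Cd74, from the list of 12 macrophage and leukocyte markers, had -0.64 ± 0.13 (adjusted p = 0.00186), 1.08 ± 0.13 (adjusted p = 1.33e-05) and -0.98 ± 0.13 (adjusted p = 3.26e-05) in the first 3 of these comparisons. The other 11 markers summed to at most 3.45 CPM in any library.

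Lamp1 and Lamp2 are the main glycoproteins of the lysosomal membrane. Lamp1 stood at 434, 408 and 417 CPM in HT-DNA+AOA+Asp, 521, 552 and 502 CPM in HT-DNA+AOA, 434, 411 and 403 CPM in HT-DNA and 475, 478 and 534 CPM in mock. The HT-DNA+AOA and mock ranges overlapped, and both other groups lay lower. Lamp1 had -0.25 ± 0.05 (adjusted p = 0.000319) in HT-DNA against mock, 0.33 ± 0.05 (adjusted p = 8.19e-06) with AOA and -0.32 ± 0.05 (adjusted p = 1.22e-05) with Asp. Lamp2 averaged 143 ± 2.23 CPM in HT-DNA+AOA+Asp, 150.4 ± 5.39 in HT-DNA+AOA, 138 ± 4.20 in HT-DNA and 173 ± 6.17 in mock, with -0.33 ± 0.043 (adjusted p = 2.42e-06) in HT-DNA against mock. With AOA Lamp2 had 0.12 ± 0.043 (adjusted p = 0.0203), a call that missed the threshold on omitting HT-DNA replicate 1 (adjusted p = 0.0754), HT-DNA replicate 2 (0.0769) or HT-DNA+AOA replicate 1 (0.081), and on scaling by library size alone (0.183).

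Cd164, a sialomucin found in lysosomes, averaged 208 ± 2.82 CPM in HT-DNA+AOA+Asp, 278 ± 6.43 in HT-DNA+AOA, 210.4 ± 6.88 in HT-DNA and 199 ± 2.35 in mock. It had 0.08 ± 0.04 (adjusted p = 0.132) in HT-DNA against mock, 0.40 ± 0.04 (adjusted p = 2.35e-08) with AOA and -0.41 ± 0.04 (adjusted p = 1.27e-08) with Asp. Cd63 had smaller differences, at 0.15 ± 0.044 (adjusted p = 0.00534) with AOA and -0.19 ± 0.044 (adjusted p = 0.000975) with Asp. Litaf, a protein of late endosomal membranes, was lower in HT-DNA against mock, at -0.52 ± 0.047 (adjusted p = 1.66e-08), and passed in no other comparison. Entpd4 and Entpd4b, nucleoside diphosphatases, are near-identical copies between which estimated counting can move reads, so their values are uncertain. Entpd4 ranged from 6.88 to 31.4 CPM and Entpd4b from 14.8 to 34.7 CPM over the 12 libraries. The Entpd4 value with Asp, -1.38 ± 0.48 (adjusted p = 0.0393), lost its call under 10 alternatives, among them leaving out any HT-DNA+AOA+Asp replicate, HT-DNA+AOA replicate 2 or 3, HT-DNA replicate 2 or mock replicate 2 or 3 (adjusted p = 0.0522 to 0.131).

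The proton pump (V-ATPase) was represented by 8 members. With AOA 6 of them were called higher and 1 lower (75% and 12.5%, against 25.5% and 26.5% of all genes). With Asp 1 was called higher and 6 lower (12.5% and 75%, against 28.3% and 26.4% of all genes). Scaling by library size alone left 3 higher and 2 lower with AOA, and 1 higher and 5 lower with Asp. Atp6v0a1, an isoform of subunit a of the membrane sector, averaged 119 ± 7.16 CPM in HT-DNA+AOA+Asp, 135 ± 6.66 in HT-DNA+AOA, 111 ± 3.86 in HT-DNA and 156 ± 4.86 in mock. It had -0.50 ± 0.05 (adjusted p = 6.03e-08) in HT-DNA against mock, 0.29 ± 0.05 (adjusted p = 5.65e-05) with AOA and -0.18 ± 0.05 (adjusted p = 0.00471) with Asp, although the HT-DNA+AOA+Asp and HT-DNA+AOA libraries overlapped. Atp6v0a2, the Golgi isoform of the same subunit, averaged 110.0 ± 4.03 CPM in HT-DNA and 87.5 ± 4.20 in mock, with 0.33 ± 0.048 (adjusted p = 1e-05), a higher call. Its lower call with AOA, -0.15 ± 0.048 (adjusted p = 0.0151), missed the threshold on omitting HT-DNA replicate 3 (adjusted p = 0.0612) or HT-DNA+AOA replicate 2 (0.0698), and its lower call in HT-DNA+AOA+Asp against HT-DNA, -0.17 ± 0.048 (adjusted p = 0.0189), on omitting HT-DNA replicate 3 (0.0621) or HT-DNA+AOA+Asp replicate 1 (0.0978) or 2 (0.053). Atp6v1h, a regulatory subunit of the pump, had 0.26 ± 0.048 (adjusted p = 0.000112) in HT-DNA against mock, 0.19 ± 0.047 (adjusted p = 0.00215) with AOA and -0.27 ± 0.047 (adjusted p = 5.33e-05) with Asp. Of 10 further subunits that KEGG does not list here, 7 (70%) were called lower in HT-DNA against mock, against 19.8% of all genes. With AOA 6 of these 10 (60%) were called higher and 1 (10%) lower, against 25.5% and 26.5% of all genes. Atp6v1d had 0.45 ± 0.052 (adjusted p = 2.35e-07) with AOA.

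Mcoln1, the calcium channel that signals from lysosomes to Tfeb, stood at 13.5, 14.9 and 11.6 CPM in HT-DNA+AOA+Asp, 11.4, 11.2 and 10.7 CPM in HT-DNA+AOA, 10.4, 8.96 and 8.80 CPM in HT-DNA and 17.1, 16.9 and 16.1 CPM in mock. All mock libraries lay above all others and the HT-DNA libraries below all others. Mcoln1 had -0.83 ± 0.096 (adjusted p = 4.43e-07) in HT-DNA against mock, 0.24 ± 0.1 (adjusted p = 0.0523) with AOA and 0.49 ± 0.099 (adjusted p = 0.00145) in HT-DNA+AOA+Asp against HT-DNA. Its call with Asp, 0.26 ± 0.097 (adjusted p = 0.0308), missed the threshold on omitting HT-DNA+AOA replicate 2 (adjusted p = 0.0605) or 3 (0.0937), or without HT-DNA+AOA+Asp replicate 1 (0.0745) or 2 (0.184), where the log2 fold change was 0.17.

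Ctns, which exports cystine, stood at 18.9, 19.3 and 19.5 CPM in HT-DNA+AOA+Asp, 14.2, 13.9 and 11 CPM in HT-DNA+AOA, 11.9, 13 and 12.8 CPM in HT-DNA and 20.8, 22 and 22 CPM in mock. The HT-DNA+AOA+Asp and mock libraries were high, the HT-DNA+AOA and HT-DNA libraries low, and the HT-DNA+AOA and HT-DNA ranges overlapped. Ctns had -0.79 ± 0.085 (adjusted p = 1.7e-07) in HT-DNA against mock, 0.06 ± 0.09 (adjusted p = 0.623) with AOA, 0.56 ± 0.087 (adjusted p = 1.07e-05) with Asp and 0.62 ± 0.086 (adjusted p = 5.7e-05) in HT-DNA+AOA+Asp against HT-DNA. Slc17a5, which exports sialic acid, averaged 7.96 ± 0.259 CPM in HT-DNA+AOA+Asp, 4.90 ± 1.10 in HT-DNA+AOA, 6.45 ± 1.17 in HT-DNA and 10.4 ± 0.32 in mock, with -0.70 ± 0.13 (adjusted p = 0.000206) in HT-DNA against mock and 0.70 ± 0.14 (adjusted p = 0.000299) with Asp. With AOA its groups overlapped, and the call at -0.39 ± 0.15 (adjusted p = 0.0306) was lost when HT-DNA replicate 1 or 3 or HT-DNA+AOA replicate 1 or 2 was left out, with -0.25 (adjusted p = 0.191) without HT-DNA+AOA replicate 2. Abca2, a lipid transporter, had 0.36 ± 0.053 (adjusted p = 6.69e-06) with Asp and 0.34 ± 0.053 (adjusted p = 0.000156) in HT-DNA+AOA+Asp against HT-DNA. Npc1, which moves cholesterol out of lysosomes, averaged 66.6 ± 0.811 CPM in HT-DNA+AOA+Asp, 64.5 ± 5.45 in HT-DNA+AOA, 53.7 ± 2.28 in HT-DNA and 67.9 ± 0.532 in mock, with -0.34 ± 0.056 (adjusted p = 3.77e-05) in HT-DNA against mock, 0.26 ± 0.056 (adjusted p = 0.000417) with AOA and 0.05 ± 0.055 (adjusted p = 0.502) with Asp.

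Hgsnat, a membrane enzyme that acetylates heparan sulfate, stood at 13.8, 15.4 and 14.6 CPM in HT-DNA+AOA+Asp, 24.8, 24.7 and 26.9 CPM in HT-DNA+AOA, 16.1, 14.9 and 16.7 CPM in HT-DNA and 13.7, 14.9 and 16.7 CPM in mock. The HT-DNA+AOA libraries lay far above all others, which overlapped. Hgsnat had 0.68 ± 0.08 (adjusted p = 3.26e-07) with AOA and -0.80 ± 0.082 (adjusted p = 3.25e-08) with Asp, and 0.07 ± 0.084 (adjusted p = 0.535) in HT-DNA against mock. Slc11a2, an iron transporter of endosomes, stood at 189, 187 and 187 CPM in HT-DNA+AOA+Asp, 262, 253 and 257 CPM in HT-DNA+AOA, 218, 215 and 218 CPM in HT-DNA and 142, 149 and 152 CPM in mock. The 4 groups did not overlap, with HT-DNA+AOA highest and mock lowest. Slc11a2 had 0.55 ± 0.04 (adjusted p = 4.7e-10) in HT-DNA against mock, 0.25 ± 0.039 (adjusted p = 1.66e-05) with AOA and -0.46 ± 0.039 (adjusted p = 2.38e-09) with Asp. Slc11a1, its relative known from phagocyte lysosomes, had 0.06 ± 0.046 (adjusted p = 0.297), -0.28 ± 0.046 (adjusted p = 2.62e-05) and 0.17 ± 0.046 (adjusted p = 0.00345) in the same comparisons. Slc11a1 was abundant, although most macrophage markers were near 0. Its mean over all libraries was 270 CPM by library size alone, where Cd68 had 284 CPM.

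Abcb9, a peptide transporter related to the TAP proteins, had the largest higher call of the 108 genes in HT-DNA against mock. It stood at 2.95, 3 and 2.86 CPM in HT-DNA+AOA+Asp, 4.14, 4.57 and 3.66 CPM in HT-DNA+AOA, 4.34, 5.12 and 4 CPM in HT-DNA and 2.13, 1.65 and 1.94 CPM in mock. Its mock libraries lay below all others, and its HT-DNA+AOA and HT-DNA libraries overlapped above the HT-DNA+AOA+Asp libraries. The log2 fold change was 1.24 ± 0.17 (adjusted p = 2.99e-06) for HT-DNA against mock. With Asp it was -0.49 ± 0.16 (adjusted p = 0.0121), a call that missed the threshold on omitting HT-DNA+AOA replicate 2 (adjusted p = 0.0638), and in HT-DNA+AOA+Asp against HT-DNA it was -0.62 ± 0.16 (adjusted p = 0.00886), which missed the threshold on omitting HT-DNA replicate 2 (0.0666). Its level was below the 5 CPM set for naming genes, and it was named after its values were seen.

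Of the 5 genes of the mannose 6-phosphate route, the receptors moved apart in HT-DNA against mock. M6pr, the small cation-dependent receptor, averaged 211 ± 1.27 CPM in HT-DNA+AOA+Asp, 218 ± 5.56 in HT-DNA+AOA, 227 ± 7.58 in HT-DNA and 180.5 ± 6.58 in mock. Igf2r, the large receptor that also clears insulin-like growth factor 2, averaged 410.5 ± 11.7 CPM in HT-DNA+AOA+Asp, 366 ± 16.9 in HT-DNA+AOA, 348 ± 14.5 in HT-DNA and 417 ± 2.76 in mock. In HT-DNA against mock M6pr was higher, at 0.33 ± 0.042 (adjusted p = 1.48e-06), and Igf2r lower, at -0.26 ± 0.044 (adjusted p = 4.34e-05). M6pr passed in no other comparison, while Igf2r was higher with Asp, at 0.16 ± 0.044 (adjusted p = 0.00298), and in HT-DNA+AOA+Asp against HT-DNA, at 0.24 ± 0.044 (adjusted p = 0.000646). The subunits of the phosphotransferase that makes the tag also differed from each other: Gnptab had 0.21 ± 0.05 (adjusted p = 0.00215) in HT-DNA against mock and -0.28 ± 0.05 (adjusted p = 7.06e-05) with AOA, and Gnptg had -0.29 ± 0.08 (adjusted p = 0.00489) and 0.38 ± 0.08 (adjusted p = 0.000353).

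Among the coat proteins, Cltb stood at 50.5, 47.9 and 46.9 CPM in HT-DNA+AOA+Asp, 55.7, 58.5 and 55.5 CPM in HT-DNA+AOA, 48.3, 44.9 and 44.2 CPM in HT-DNA and 33.4, 32.5 and 33.1 CPM in mock. Every library with DNA lay above every mock library, and the HT-DNA+AOA libraries were the highest. Cltb had 0.47 ± 0.054 (adjusted p = 3.91e-07) in HT-DNA against mock, 0.31 ± 0.053 (adjusted p = 4.43e-05) with AOA and -0.23 ± 0.053 (adjusted p = 0.000984) with Asp. Cltc had 0.19 ± 0.044 (adjusted p = 0.00133) in HT-DNA against mock and passed in no other comparison. Gga2, an adaptor that binds mannose 6-phosphate receptors at the Golgi, was lower, at -0.21 ± 0.046 (adjusted p = 0.000677). Its relative Gga1 was lower with AOA, at -0.23 ± 0.062 (adjusted p = 0.00375).

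The adaptor subunits were summed per complex. Ap1, which loads receptors at the Golgi and endosomes, summed to 488 ± 5.60 CPM in HT-DNA+AOA+Asp, 481 ± 8.41 in HT-DNA+AOA, 491 ± 5.21 in HT-DNA and 452 ± 15.9 in mock over 6 subunits. Ap3, which sends membrane proteins to lysosomes, summed to 573 ± 9.93 CPM in HT-DNA+AOA+Asp, 547 ± 8.40 in HT-DNA+AOA, 577 ± 7.13 in HT-DNA and 626 ± 17.1 in mock over 7 subunits. Ap4, a rarer complex of the Golgi that also takes part in autophagy, summed to 80.5 ± 2.18 CPM in HT-DNA+AOA+Asp, 80.3 ± 3.48 in HT-DNA+AOA, 81.2 ± 3.06 in HT-DNA and 86.3 ± 5.04 in mock over 4 subunits. The mock libraries were below the libraries with DNA for Ap1 and above them for Ap3, and the sums of Ap4 overlapped. In HT-DNA against mock, 2 Ap1 subunits were called higher and 1 lower (33.3% and 16.7%), 3 Ap3 subunits lower (42.9%), and 1 Ap4 subunit higher and 1 lower (25% each). Of all genes 21.2% were higher and 19.8% lower. With AOA, 2 Ap1 subunits were higher and 3 lower (33.3% and 50%), 3 Ap3 subunits lower (42.9%), and 1 Ap4 subunit higher and 1 lower (25% each). Of all genes 25.5% were higher and 26.5% lower, so the Ap4 counts lay near the shares of all genes.

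Within Ap1 and within Ap4, subunits were called in opposite directions in HT-DNA against mock and with AOA. Within Ap3 this was so only with Asp, where 3 subunits were called higher and 1 lower. Of Ap1, Ap1m1, a medium chain that recognises sorting signals, stood at 97.6, 98.1 and 97.6 CPM in HT-DNA+AOA+Asp, 120.4, 135 and 116 CPM in HT-DNA+AOA, 99, 100.0 and 97.4 CPM in HT-DNA and 91.7, 89.1 and 94.1 CPM in mock. The HT-DNA+AOA libraries lay above all others. Ap1m1 had 0.33 ± 0.05 (adjusted p = 9.72e-06) with AOA and -0.34 ± 0.05 (adjusted p = 5.21e-06) with Asp, while Ap1g1, the gamma chain, had -0.21 ± 0.049 (adjusted p = 0.00108) and 0.19 ± 0.05 (adjusted p = 0.00304). In HT-DNA against mock Ap1g1 had 0.16 ± 0.049 (adjusted p = 0.0097), which missed the threshold on omitting HT-DNA replicate 3 (adjusted p = 0.0643) and on scaling by library size alone (0.11), and its relative Ap1g2 had -0.39 ± 0.065 (adjusted p = 4.07e-05). Ap1g2 was the adaptor subunit called higher in HT-DNA+AOA+Asp against HT-DNA, at 0.39 ± 0.065 (adjusted p = 0.000326).

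Of Ap3, the delta chain Ap3d1 averaged 306 ± 5.01 CPM in HT-DNA+AOA+Asp, 302 ± 2.36 in HT-DNA+AOA, 303 ± 1.84 in HT-DNA and 335 ± 11 in mock. It had -0.15 ± 0.038 (adjusted p = 0.00361) in HT-DNA against mock and passed in no other comparison. The small chain Ap3s2 averaged 48.9 ± 4.68 CPM in HT-DNA+AOA+Asp, 37.6 ± 1.19 in HT-DNA+AOA, 50.7 ± 1.82 in HT-DNA and 55.7 ± 3.97 in mock, with -0.43 ± 0.067 (adjusted p = 1.2e-05) for AOA and 0.38 ± 0.067 (adjusted p = 6.4e-05) for Asp, and the medium chain Ap3m2 had -0.41 ± 0.099 (adjusted p = 0.00148) and 0.35 ± 0.1 (adjusted p = 0.00564). Of Ap4, the medium chain Ap4m1 stood at 19.1, 19.9 and 20.8 CPM in HT-DNA+AOA+Asp, 11.6, 11.4 and 13.6 CPM in HT-DNA+AOA, 15.6, 15.3 and 19.5 CPM in HT-DNA and 26.2, 27.7 and 22 CPM in mock. The HT-DNA+AOA libraries were the lowest and the mock libraries the highest, and no 2 groups overlapped except HT-DNA+AOA+Asp and HT-DNA. Ap4m1 had -0.60 ± 0.098 (adjusted p = 4.77e-05) in HT-DNA against mock, -0.45 ± 0.11 (adjusted p = 0.00115) with AOA and 0.71 ± 0.1 (adjusted p = 7.9e-06) with Asp. The beta chain Ap4b1 went the other way, at 0.25 ± 0.063 (adjusted p = 0.00201) with AOA and -0.39 ± 0.064 (adjusted p = 1.91e-05) with Asp, and the epsilon chain Ap4e1 passed in none of the 4 comparisons by edgeR, at -0.01 ± 0.081 (adjusted p = 0.969) in HT-DNA against mock and -0.09 ± 0.082 (adjusted p = 0.383) with AOA. The small chains also differed in HT-DNA against mock: Ap1s1 had 0.23 ± 0.048 (adjusted p = 0.000385), Ap3s1 -0.21 ± 0.059 (adjusted p = 0.00735) and Ap4s1 0.39 ± 0.11 (adjusted p = 0.00529).

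Tfeb and its relatives, which act on CLEAR elements, and Zkscan3 are not KEGG members but were read beside them. Tfeb stood at 13.3, 13.7 and 14.9 CPM in HT-DNA+AOA+Asp, 10.3, 10.2 and 9.84 CPM in HT-DNA+AOA, 15.9, 15.1 and 12.8 CPM in HT-DNA and 13, 12.9 and 14.1 CPM in mock. The HT-DNA+AOA libraries lay below all others, and the remaining 3 groups overlapped. Tfeb had 0.14 ± 0.088 (adjusted p = 0.236) in HT-DNA against mock, -0.54 ± 0.091 (adjusted p = 3.9e-05) with AOA and 0.47 ± 0.092 (adjusted p = 0.000194) with Asp. Mitf averaged 6.21 ± 0.285 CPM in HT-DNA+AOA+Asp, 2.39 ± 0.71 in HT-DNA+AOA, 4.74 ± 0.242 in HT-DNA and 7.42 ± 0.485 in mock, with -0.65 ± 0.14 (adjusted p = 0.000971), -0.96 ± 0.17 (adjusted p = 4.57e-05) and 1.36 ± 0.16 (adjusted p = 3.63e-07) in the same comparisons. Tfe3 averaged 67.7 ± 0.338 CPM in HT-DNA+AOA+Asp, 52.5 ± 1.79 in HT-DNA+AOA, 56.6 ± 1.79 in HT-DNA and 62.9 ± 0.349 in mock. It had -0.11 ± 0.047 (adjusted p = 0.0582) with AOA, 0.37 ± 0.047 (adjusted p = 1e-06) with Asp and 0.26 ± 0.047 (adjusted p = 0.000681) in HT-DNA+AOA+Asp against HT-DNA. Its call in HT-DNA against mock, -0.15 ± 0.047 (adjusted p = 0.013), missed the threshold on omitting HT-DNA replicate 3 (adjusted p = 0.0547). Tfec, a factor of the same family, averaged 0.631 ± 0.286 CPM in HT-DNA+AOA+Asp, 0.147 ± 0.0687 in HT-DNA+AOA, 0.587 ± 0.0772 in HT-DNA and 0.385 ± 0.187 in mock, with -1.97 ± 0.53 (adjusted p = 0.00333) for AOA and 2.05 ± 0.53 (adjusted p = 0.00234) for Asp. Its mean was below 1 CPM in each group, under the 5 CPM set for naming genes, so these log2 fold changes rest on few counts. Zkscan3, a repressor of lysosome and autophagy genes, averaged 36 ± 2.14 CPM in HT-DNA+AOA and 31.4 ± 1.37 CPM in HT-DNA. It was called higher with AOA, at 0.20 ± 0.065 (adjusted p = 0.0144), a call that missed the threshold on omitting HT-DNA replicate 1 (adjusted p = 0.0551) or 2 (0.0558) or HT-DNA+AOA replicate 1 (0.0782), and with scaling by library size alone (0.0864). In HT-DNA against mock, 3 of the 5 factors listed were called lower, Zkscan3 among them, and 0 higher (60% lower, against 19.8% of all genes). With AOA, 3 of the 5 were called lower and 1 higher (60% and 20%, against 26.5% and 25.5% of all genes). All 5 were called higher with Asp, against 28.3% of all genes. In HT-DNA+AOA+Asp against HT-DNA 2 of them, Tfe3 and Zkscan3, were called higher and 0 lower (40% higher, against 10.4% of all genes). The Asp call of Zkscan3, 0.16 ± 0.064 (adjusted p = 0.041), was lost under 9 alternatives. Among them were leaving out HT-DNA replicate 2, HT-DNA+AOA replicate 2 or 3 or HT-DNA+AOA+Asp replicate 2 or 3 (adjusted p = 0.0548 to 0.177).

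Of 17 measured genes of mTORC1, its Rag GTPases and their regulators at the lysosome surface, 7 were called lower and 5 higher with AOA. These are 41.2% and 29.4%, against 26.5% and 25.5% of all genes tested. With Asp 7 were called higher and 3 lower, or 41.2% and 17.6%, against 28.3% and 26.4% of all genes. Mtor, the kinase itself, averaged 70.3 ± 1.61 CPM in HT-DNA+AOA+Asp, 40.4 ± 3.58 in HT-DNA+AOA, 59.1 ± 4.91 in HT-DNA and 72 ± 2.35 in mock, with -0.55 ± 0.064 (adjusted p = 2.71e-07) for AOA and 0.80 ± 0.064 (adjusted p = 7.85e-10) for Asp. Tsc1, a brake on mTORC1, had -0.48 ± 0.071 (adjusted p = 8.88e-06) and 0.82 ± 0.071 (adjusted p = 4.89e-09), and Fnip1, a partner of folliculin, -0.48 ± 0.063 (adjusted p = 1.27e-06) and 0.58 ± 0.063 (adjusted p = 9.1e-08). In HT-DNA against mock 8 of the 17 genes were called lower and 3 higher (47.1% and 17.6%, against 19.8% and 21.2% of all genes). Rragd, a Rag GTPase, had -0.63 ± 0.061 (adjusted p = 3.98e-08) there. Slc38a9, an arginine sensor of the lysosomal membrane, had -0.39 ± 0.11 (adjusted p = 0.00803). The Slc38a9 call missed the threshold on omitting mock replicate 1. Of 13 lysosomal membrane proteins outside the KEGG list, 6 were called lower and 2 higher in HT-DNA against mock. These are 46.2% and 15.4%, against 19.8% and 21.2% of all genes. With AOA 5 were called each way (38.5% each, against 25.5% higher and 26.5% lower of all genes). Pip4p1, a phosphoinositide phosphatase, had -0.84 ± 0.066 (adjusted p = 2.04e-09) in HT-DNA against mock. Tpcn1, a cation channel, had -0.63 ± 0.052 (adjusted p = 1.55e-09) with AOA and 0.66 ± 0.052 (adjusted p = 6.25e-10) with Asp, and Tmem175, a lysosomal ion channel, 0.51 ± 0.081 (adjusted p = 1.75e-05) and -0.66 ± 0.083 (adjusted p = 7.19e-07). Of 3 measured cathepsin inhibitors, 1 was called higher and 1 lower with AOA, and likewise with Asp (33.3% each, near the shares of all genes). Cst6 had -0.35 ± 0.059 (adjusted p = 3.46e-05) with AOA and 0.30 ± 0.059 (adjusted p = 0.000159) with Asp. Cstb had 0.16 ± 0.052 (adjusted p = 0.0159) with AOA, which missed the threshold on omitting HT-DNA replicate 3 (adjusted p = 0.0568) or HT-DNA+AOA replicate 2 (0.0515) and with scaling by library size alone (0.093). With Asp Cstb had -0.15 ± 0.053 (adjusted p = 0.0182), which missed it on omitting HT-DNA+AOA replicate 2 (adjusted p = 0.0575) or HT-DNA+AOA+Asp replicate 1 (0.0579) or 3 (0.0628) and with scaling by library size alone (0.115).

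The core of the CLEAR element, TCACGTGA, was searched on both strands of the RefSeq promoters (GRCm38.p6), which run from 250 bases before each annotated start to 50 after it. The core contains the E-box CACGTG, so each core match is also an E-box match, and both read alike on the 2 strands. A promoter entry was found for 85 of the 108 lysosome genes by symbol. The core was present for 10 of these (11.8%), against 304 of all 27025 genes with an entry (1.12%) and 222 of the 10027 tested genes with an entry (2.21%). The E-box was present for 23 (27.1%), against 8.09% and 11.8%. A match is a description of the letters and not a bound site. The 10 genes were Atp6v0d1, Cd164, Cln3, Ctsa, Ctsd, Gla, Gnptg, Igf2r, Mcoln1 and Sumf1. Of them 7 were called lower and 0 higher in HT-DNA against mock, with a median log2 fold change of -0.28. Of the 75 lysosome genes with an entry and no core, 38 were called lower and 10 higher, with a median of -0.13. Of all genes tested 19.8% were called lower and 21.2% higher there. With AOA, 5 of the 10 were called higher and 1 lower (median 0.19), and 22 of the 75 higher and 18 lower (median 0.01). Of all genes 25.5% were higher and 26.5% lower. With Asp, 4 of the 10 were called higher and 5 lower (median -0.06), and 23 of the 75 higher and 20 lower (median 0.02). Of all genes 28.3% were higher and 26.4% lower. In HT-DNA+AOA+Asp against HT-DNA 2 of the 10 were higher and 0 lower, and 11 of the 75 higher and 3 lower. The shares of all genes were 10.4% and 8.15%.

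The promoters below carry 2 cores each in Gla, Ctsa and Igf2r, or the core in Mcoln1, the ion channel with the largest lower call among the membrane proteins in HT-DNA against mock. They are written 5′ to 3′ on the strand of the gene, with the core in capitals.
Gla (chrX:134600956-134601255, minus strand): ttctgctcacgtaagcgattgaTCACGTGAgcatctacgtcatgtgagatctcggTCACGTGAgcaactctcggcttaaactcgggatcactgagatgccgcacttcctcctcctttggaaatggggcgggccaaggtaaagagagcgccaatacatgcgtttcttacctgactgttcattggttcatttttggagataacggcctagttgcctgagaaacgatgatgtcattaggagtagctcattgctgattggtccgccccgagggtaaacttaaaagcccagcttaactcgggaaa
Ctsa (chr2:164833523-164833822, plus strand): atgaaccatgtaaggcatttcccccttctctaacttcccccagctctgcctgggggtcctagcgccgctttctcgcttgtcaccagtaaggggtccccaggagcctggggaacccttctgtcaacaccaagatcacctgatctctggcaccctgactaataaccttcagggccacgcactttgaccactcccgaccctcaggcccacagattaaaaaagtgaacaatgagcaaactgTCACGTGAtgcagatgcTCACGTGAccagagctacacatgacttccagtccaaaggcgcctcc
Igf2r (chr17:12769657-12769956, minus strand): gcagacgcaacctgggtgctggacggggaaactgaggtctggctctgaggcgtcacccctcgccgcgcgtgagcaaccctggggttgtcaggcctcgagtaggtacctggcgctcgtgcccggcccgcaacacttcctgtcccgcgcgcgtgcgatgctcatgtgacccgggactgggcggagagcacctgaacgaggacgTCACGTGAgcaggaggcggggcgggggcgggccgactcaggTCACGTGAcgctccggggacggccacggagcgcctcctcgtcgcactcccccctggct
Mcoln1 (chr8:3500269-3500568, plus strand): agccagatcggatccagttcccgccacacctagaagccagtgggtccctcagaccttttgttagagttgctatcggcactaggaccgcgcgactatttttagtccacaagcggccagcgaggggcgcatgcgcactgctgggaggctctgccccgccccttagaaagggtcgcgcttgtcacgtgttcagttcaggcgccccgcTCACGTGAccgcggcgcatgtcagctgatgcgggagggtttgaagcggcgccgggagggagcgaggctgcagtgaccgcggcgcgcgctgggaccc
The cores of Gla are centred 224 and 191 bases before the start, that of Mcoln1 42 before it, and those of Igf2r 45 and 4 before it. Ctsa, a serine carboxypeptidase that protects Neu1 and beta-galactosidase, has them 9 before and 8 after the start. Genes with the core differed among themselves: in HT-DNA against mock they ranged from -1.02 in Gla to 0.08 in Cd164, whose groups did not pass the test.

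**Figure D5:**
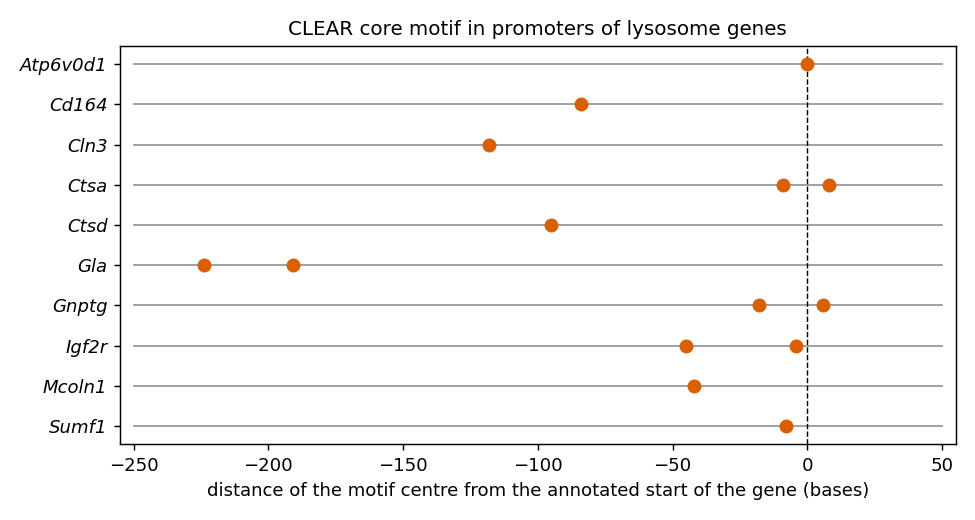
Position of the CLEAR core (orange points) along the RefSeq promoter windows (grey lines) of the 10 lysosome genes that hold it; x axis, distance in bases from the annotated start (dashed line), y axis, genes. Gla, Ctsa and Igf2r each hold 2 cores, and the 2 points of Gnptg are the same core read from 2 annotated starts; 6 of the genes have a core within 50 bases of a start.

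In all, 94 of the 108 lysosome genes were called by edgeR in at least 1 comparison, against 74.2% of all genes tested, and 14 in none: Ap1s2, Ap3b2, Ap4e1, Arsb, Arsg, Entpd4b, Galns, Gga3, Ids, Mfsd8, Nagpa, Napsa, Npc2 and Sgsh. Among them are 5 of the 7 sulfatases and 1 subunit each of Ap1, Ap3 and Ap4. Npc2, the soluble partner of Npc1, was abundant, at 329 ± 5.79 CPM in HT-DNA+AOA+Asp, 350.5 ± 5.69 in HT-DNA+AOA, 326 ± 12.7 in HT-DNA and 343 ± 21.1 in mock, with 0.11 ± 0.045 (adjusted p = 0.0549) for AOA.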

How the data were processed

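RNA from 12 libraries of L929 cells, 3 in each of 4 groups, was sequenced from TRIzol extracts, per the labels' protocols. The deposited table gives estimated counts per gene, of which 14.4% to 16.6% per library were not whole; which aligner, counter, strand setting and genome build were used is not given in the sources used here. Deposited group means equalled the mean of their columns within 3.3e-05 and were not used. Counts were rounded to whole numbers. Genes were kept with filterByExpr (minimum count 10, minimum total 15), scaled with TMM factors (0.954 to 1.05), and fitted in 1 model over the 4 groups with the robust quasi-likelihood test of edgeR 4.0.16 in R 4.3.3, with limma 3.58.1 installed. Benjamini-Hochberg adjustment ran over 14694 genes, with 8 residual degrees of freedom and a common biological coefficient of variation of 0.0534. The code was tested on simulated data. Libraries held 19944571 to 27309291 counts, which limits the precision of genes near 1 CPM, and no pair of replicates agreed within sampling noise (chi-square per degree of freedom 2.15 to 7.96).

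The lysosome genes, their roles and the further gene lists were chosen with earlier results of these data known. Per comparison and class, up to 5 genes were named by the largest absolute log2 fold change among those with an adjusted p under 0.05, at least 5 CPM in the higher group and groups that did not overlap, with up to 3 per further list; Cd68, Lamp1, Lamp2, Ctsb, Ctsd, Ctsl, Hexa, Psap, Npc1, Mcoln1, Dnase2a, Igf2r, M6pr, Ap1g1, Ap3d1, Ap4e1, Tfeb, Tfe3 and Mitf were among those followed throughout. Some of the lysosome genes are counted but not reported by name here. Others named in the text were chosen after their values were seen. Overlapping and antisense genes, and near-identical copies such as Entpd4 and Entpd4b, are uncertain, since reads between them cannot be told apart. Alternatives were scaling by library size alone, DESeq2 size factors, a filter of a mean of 1 CPM, no filter, a replicate block, only the 2 groups compared, each library left out, the Wald test of DESeq2 1.42.0, and other minimum levels for the lysosome genes.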

Additional observations from a re-analysis of the deposited data

How the results depend on the processing

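No lysosome gene called in a comparison changed sign under any alternative tried. Counts of lysosome genes called stayed within 1.5 times the reported count, except those lower in HT-DNA+AOA+Asp against HT-DNA. That count, reported as 5, was 3 with a replicate block, 8 with only the 2 groups compared, 8 with the DESeq2 Wald test, 3 over genes with a mean of 5 CPM or more, and 2 to 7 when single libraries were left out; the cause was not tested. Leaving out single libraries gave 13 to 15 higher and 47 to 56 lower in HT-DNA against mock, 33 to 41 higher and 20 to 23 lower in HT-DNA+AOA against HT-DNA, 24 to 33 higher and 30 to 38 lower in HT-DNA+AOA+Asp against HT-DNA+AOA, and 11 to 17 higher in HT-DNA+AOA+Asp against HT-DNA. Over all genes, HT-DNA+AOA+Asp against HT-DNA gave 952 to 1710 higher and 726 to 1367 lower when single libraries were left out. The labels state no pairing of libraries by replicate number. Deviations from the group means correlated at -0.151 to 0.0456 between libraries of the same number and at -0.0658 to 0.144 between others. These values cannot settle whether libraries of the same number were prepared together. With the replicate block 2 of 69 lysosome calls were lost in HT-DNA against mock, 1 of 62 in HT-DNA+AOA against HT-DNA, 4 of 68 in HT-DNA+AOA+Asp against HT-DNA+AOA and 5 of 21 in HT-DNA+AOA+Asp against HT-DNA. Depth limits genes near 1 CPM, such as Ctso.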
